A study of Rattus norvegicus with 26 samples.

Results

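The solute carrier genes encode membrane proteins that move nutrients, ions, metals, metabolites and transmitters into cells, out of them, or across the membranes of their organelles. They were taken from the annotated symbols of the arrays (Slc, a family number, a letter and a member number), leaving out the transmitter carriers Slc1a1, Slc1a2, Slc1a3, Slc17a6, Slc17a7 and Slc32a1. That gave 288 measured genes. Of these, 149 had a mean of at least 7 log2 units in 1 or more of 4 cultures and were kept, so the members were chosen by their measured level, and 139 did not reach that level. The values that chose the kept genes are therefore the same values described below, and counts over the kept genes are descriptions. At the edge of the choice, Slc35f4 and Slc25a53 each had a highest culture mean of 7.03 and were kept, whereas Slc39a4 (6.94) and Slc30a7 (6.92) were not. By comparison 8461 of the 14217 genes on the arrays (59.5%) reached the same level. Each gene was represented by the probe set with its highest mean over all arrays. Since probe sets bind with different strength, values are compared between cultures for a gene and never between genes.

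The RNA came from primary cultures of the cerebral cortex of newborn (P1) rats, enriched for neurons, astrocytes, oligodendrocytes or microglia, with 4 biological replicates of each, and no genotype, strain or treatment was stated. A further 10 arrays held mixtures of the same RNA. NA1, NA2 and NA3 combined neuronal RNA at a fraction of 0.25, 0.5 or 0.75 with astrocytic RNA. The fractions of N, A and O in NAO were 0.5, 0.25 and 0.25, and those of N, A, O and M in NAOM were 0.5, 0.2, 0.2 and 0.1, with 2 arrays per mixture. Mixture replicate 1 was made from neuron replicate 1, astrocyte replicate 1, oligodendrocyte replicate 2 and microglia replicate 2. Mixture replicate 2 was made from neuron replicate 2, astrocyte replicate 4, oligodendrocyte replicate 4 and microglia replicate 3. Microglia replicate 4 carries a description that reads as a mixture, but its title and cell type name a microglial culture, and it is treated as one.

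The cultures were enriched rather than pure, and several arrays stood apart. The mean of 8 microglial markers ranged from 9.99 to 10.87 log2 units in microglia and from 7.63 to 8.69 in oligodendrocyte cultures, against 4.51 to 4.66 in neurons. The oligodendrocyte marker mean was 9.76 to 11.52 in its own cultures and 7.45 to 9.24 in microglia, against 5.31 to 5.48 in neurons. Astrocyte markers averaged 10.32 to 12.08 in astrocytes and 7.84, 8.96, 10.47 and 10.14 in neuron replicates 1 to 4. Astrocyte replicate 4 had the lowest astrocyte marker mean of its group (10.32) and a fibroblast and meningeal marker mean of 9.23, against 6.57 to 6.66 in the other astrocyte arrays. That mean was set by the collagen genes Col1a1 (13.01), Col1a2 (13.11) and Col3a1 (12.56), whereas Dcn (3.31 to 3.52) and Lum (3.13 to 3.22) were at the low end of the scale and Ogn (9.96 to 10.14) was alike on all 4 astrocyte arrays. Oligodendrocyte replicate 1 had an astrocyte marker mean of 9.49, against 6.41 to 7.53 in the other oligodendrocyte arrays. Astrocyte replicate 1 had an oligodendrocyte marker mean of 6.99, against 5.34 to 5.86 in the other astrocyte arrays. Microglial markers averaged 5.70 and 5.87 in astrocyte replicates 2 and 3, and 4.70 and 4.43 in replicates 1 and 4. The 2 measured oligodendrocyte precursor markers averaged 7.69 to 8.66 in oligodendrocyte cultures and 6.61 to 7.52 in microglia. Of these, Pdgfra had means of 11.07 and 9.54 there, and Cspg4 of 5.20 and 4.50. Endothelial markers stayed between 3.50 and 4.25 on every culture array. Because these are bulk samples, fewer cells of a type and less RNA per cell cannot be told apart, and the part of admixed cells in each result below was not tested.

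Which culture carries most of each carrier was asked by comparing all 4 cultures in pairs. A gene was called where limma gave an adjusted p under 0.05 and a difference of at least 1 log2 unit (a factor of 2 on the linear scale), and a culture was said to lead for a gene that was called higher there in all 3 of its comparisons. Neurons led for 20 of the 149 kept genes (13.4%), where 11.2% of the 8461 array genes at the same level were called. Microglia led for 14 (9.40%, against 5.24%), astrocytes for 10 (6.71%, against 7.68%) and oligodendrocyte cultures for 6 (4.03%, against 2.47%). Over all 288 measured genes the counts were 26, 16, 14 and 6, or 9.03%, 5.56%, 4.86% and 2.08%, beside 8.22%, 3.65%, 5.91% and 1.70% of all 14217 genes. No pair of cultures differed by this rule for 30 kept genes (20.1%, against 34.8% of the array genes at that level). Over all 288 that count was 140 (48.6%, against 51.6%), so the smaller share with no difference is seen among the kept genes and less in the whole family.

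By substrate, the genes called higher in 1 culture than in each other culture were counted by class, over the kept and over all measured members. The shares of array genes at that level were 11.2% for neurons, 7.68% for astrocytes, 2.47% for oligodendrocyte cultures and 5.24% for microglia. Over all array genes they were 8.22%, 5.91%, 1.70% and 3.65%, in the same order. For mitochondrial carriers 5 of 30 kept genes were called for neurons and 1 for microglia (5 and 2 of 40 measured). Among carriers of sugars and polyols 4 of 10 kept genes were called for neurons and 1 for astrocytes (also 4 and 1 of 19 measured). For inorganic ions 4 of 18 kept genes were called for neurons, 2 for microglia and 1 for oligodendrocyte cultures (5, 2 and 1 of 50 measured, and 1 for astrocytes). Among carriers of amino acids and peptides 6 of 25 kept genes were called for microglia, 3 for neurons, 3 for oligodendrocyte cultures and 1 for astrocytes. Over all 47 measured genes of that class the counts were 6 for microglia, 6 for neurons, 3 and 1, so that the difference between microglia and neurons is seen only among the kept genes. For metals 3 of 21 kept genes were called for astrocytes, 2 for neurons and 2 for microglia (4, 3 and 2 of 29 measured). Each further class had at most 2 genes called for any culture. Some of these counts lie near the shares of array genes, such as 3 of 25 amino acid and peptide carriers for neurons. No pair was called for 8 of 30 kept mitochondrial carriers, 7 of 21 metal carriers and 6 of 19 carriers of nucleosides and nucleotide sugars. The last 2 are near the 34.8% of array genes at that level. The counts were 1 of 25 for amino acids and peptides, 1 of 18 for inorganic ions and 0 of 6 for transmitters and osmolytes. They were 2 of 10 for sugars and polyols, 2 of 8 for organic ions and lipids, 2 of 7 for vitamins and choline and 0 of 2 for carboxylates. Over all measured genes, 18 of 47 amino acid and peptide carriers and 30 of 50 inorganic ion carriers had no called pair, against 51.6% of all genes. These class counts were not tested against each other.

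**Figure D1:**
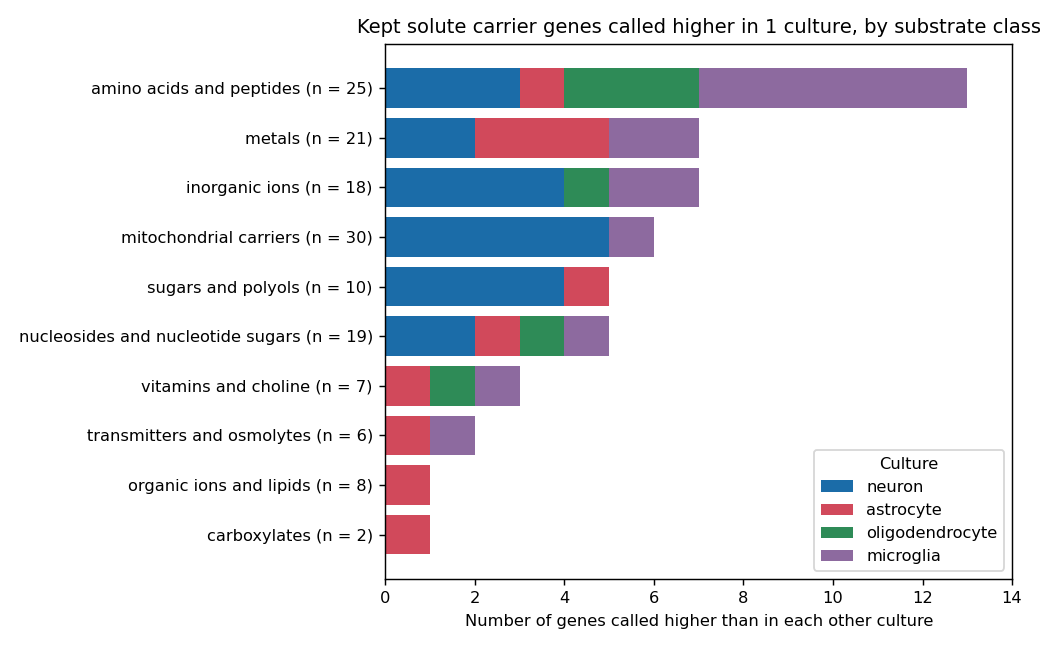
Number of kept solute carrier genes called higher in 1 culture than in each of the other 3, by substrate class (horizontal bars, coloured by the culture with the highest mean; n is the number of kept genes in the class). The microglial segment is longest for amino acids and peptides (6 genes), and the neuronal segment for mitochondrial carriers (5 genes). Over all measured members, which the bars do not show, 6 amino acid and peptide carriers were called for neurons. Of array genes at a mean of 7 or more, 11.2% were called for neurons and 5.24% for microglia.

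Sequences are shown first for a pair of closely related carriers that differed in opposite directions between neurons and microglia. Slc25a12 and Slc25a13 encode aralar and citrin, the mitochondrial aspartate-glutamate carriers that take part in the malate-aspartate shuttle. The 250 bases before the annotated start of each gene (RefSeq, build GRCr8) are given 5′ to 3′ on the gene's strand with CG dinucleotides in capitals. The Slc25a12 window lies on the minus strand at chr3:76599537-76599786 and the Slc25a13 window on the minus strand at chr4:35328361-35328610.
Slc25a12: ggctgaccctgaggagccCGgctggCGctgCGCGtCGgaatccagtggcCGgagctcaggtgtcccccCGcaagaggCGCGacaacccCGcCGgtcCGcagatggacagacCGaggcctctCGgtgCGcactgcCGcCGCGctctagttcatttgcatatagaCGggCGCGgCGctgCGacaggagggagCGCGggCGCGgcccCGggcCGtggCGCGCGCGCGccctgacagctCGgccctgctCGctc
Slc25a13: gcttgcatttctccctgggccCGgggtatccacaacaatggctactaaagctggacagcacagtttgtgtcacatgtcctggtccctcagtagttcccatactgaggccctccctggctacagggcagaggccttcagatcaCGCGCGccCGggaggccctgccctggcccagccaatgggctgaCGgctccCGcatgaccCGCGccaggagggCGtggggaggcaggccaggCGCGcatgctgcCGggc
The Slc25a12 window holds 36 CG dinucleotides and the Slc25a13 window 13. The median was 16 over the 125 kept genes with a window and 17 over 7080 array genes at the same level.

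Slc25a12 was highest in neurons, at 9.48, 9.54, 9.54 and 9.52 log2 units in the 4 replicates. It measured 7.04 to 7.29 in astrocytes, 7.89 to 8.05 in oligodendrocyte cultures and 6.91 to 7.50 in microglia. All neuronal arrays lay above all others, and the difference from the next culture, oligodendrocytes, was 1.57 ± 0.11 log2 units (SE, limma adjusted p = 1.51e-08, 2.97-fold). Slc25a13 ran the other way, at 8.63, 8.79, 8.94 and 9.18 in microglia and 4.17, 4.01, 4.69 and 4.21 in neurons. Oligodendrocyte cultures lay between, at 7.29, 7.07, 7.72 and 7.20. Astrocyte replicates 1 to 3 gave 6.30, 5.66 and 6.05, and astrocyte replicate 4 gave 8.10. The gene was both higher in microglia than in each other culture (1.56 ± 0.38 above oligodendrocytes, limma adjusted p = 0.0062) and lower in neurons than in each other culture (2.26 ± 0.38 below astrocytes, limma adjusted p = 0.000129).

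The largest differences of the whole family between the highest culture and the next one were neuronal, in plasma membrane ion carriers. Slc4a10, a sodium-coupled bicarbonate transporter that regulates neuronal pH, measured 9.37, 9.15, 9.31 and 9.44 in neurons and 3.35 to 4.21 on every other culture array. It exceeded the next culture by 5.32 ± 0.11 log2 units (SE, limma adjusted p = 6.69e-14, 39.9-fold). Slc12a5, the potassium-chloride cotransporter KCC2 that keeps neuronal chloride low, measured 11.11, 10.81, 10.24 and 10.43 in neurons and 5.10 to 6.23 elsewhere, a difference of 5.06 ± 0.23 (limma adjusted p = 7.49e-11, 33.3-fold). In both genes the groups were far apart and the other cultures lay near or below the array medians of 5.26 to 5.31, where background signal compresses differences, so that these folds and others with such a low side are better read as minimum values. Slc24a2, a potassium-dependent sodium-calcium exchanger, measured 9.0, 8.60, 10.14 and 10.11 in neurons against 5.11 to 7.04 elsewhere (3.38 ± 0.44, limma adjusted p = 1.07e-05). Neuron replicates 3 and 4 exceeded replicates 1 and 2 for this gene. Slc24a3, its relative, was highest in neurons as well (10.31, 10.29, 10.47 and 10.72), with oligodendrocyte cultures at 7.51 to 8.36 and astrocyte replicate 4 at 9.06 against 5.44 to 6.74 in the other astrocyte arrays.

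Chloride cotransport differed between cultures by member. Slc12a2, the sodium-potassium-chloride cotransporter NKCC1 that loads cells with chloride, was highest in oligodendrocyte cultures, at 11.94, 11.85, 8.91 and 10.77. Astrocytes gave 9.02, 8.69, 8.69 and 10.19, microglia 7.79 to 9.18 and neurons 7.91 to 8.16. Oligodendrocyte replicate 3 lay inside the range of the astrocytes, and the difference of 1.72 ± 0.54 (limma adjusted p = 0.0219) was lost when any of 4 arrays was left out. It was 1.37 without oligodendrocyte replicate 1 (limma adjusted p = 0.0778), 1.39 without replicate 2 (0.0761), and 1.57 without astrocyte replicate 2 (0.0638) or 3 (0.0628). Without oligodendrocyte replicate 3 it was 2.37 (limma adjusted p = 0.000303). Slc12a4, the widely expressed potassium-chloride cotransporter KCC1, was lowest in neurons (4.19, 4.28, 4.76 and 5.02) and measured 7.01 to 8.16 in astrocytes and 7.21 to 8.14 in oligodendrocyte cultures. Slc12a7, another member of that branch, was low in neurons (5.03 to 5.30) and oligodendrocyte cultures (5.77 to 6.05) and higher in astrocytes (7.01 to 7.56) and microglia (7.37 to 7.81). Both of these genes were singled out after their values were seen.

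Bicarbonate and calcium carriers gave further shared patterns. Slc4a4, the electrogenic sodium-bicarbonate cotransporter, was shared by neurons (6.91, 7.70, 8.78 and 8.76) and astrocytes (8.99, 7.84, 8.03 and 6.77), with microglia at 3.87 to 4.86. Its oligodendrocyte arrays ranged from 4.08 to 6.99, the highest being replicate 1, which also had the highest astrocyte marker mean of its group (9.49). The 2 neuronal arrays with the higher Slc4a4 values were also those with the higher astrocyte marker means (10.47 and 10.14). Slc8a1, the plasma membrane sodium-calcium exchanger, was shared by astrocytes (9.60, 9.26, 9.26 and 9.23) and microglia (9.91, 10.22, 10.07 and 9.94), while neurons (7.80 to 8.13) and oligodendrocyte cultures (7.70 to 7.98) overlapped. Slc8b1, the mitochondrial sodium-calcium exchanger, was highest in microglia at 8.96, 8.83, 8.92 and 9.36 (1.41 ± 0.20 above oligodendrocyte cultures, limma adjusted p = 9.82e-05). Slc9a9, an endosomal sodium-proton exchanger, was highest in microglia at 8.44, 8.52, 8.84 and 9.46 and lowest in neurons at 4.29 to 5.09.

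**Figure D2:**
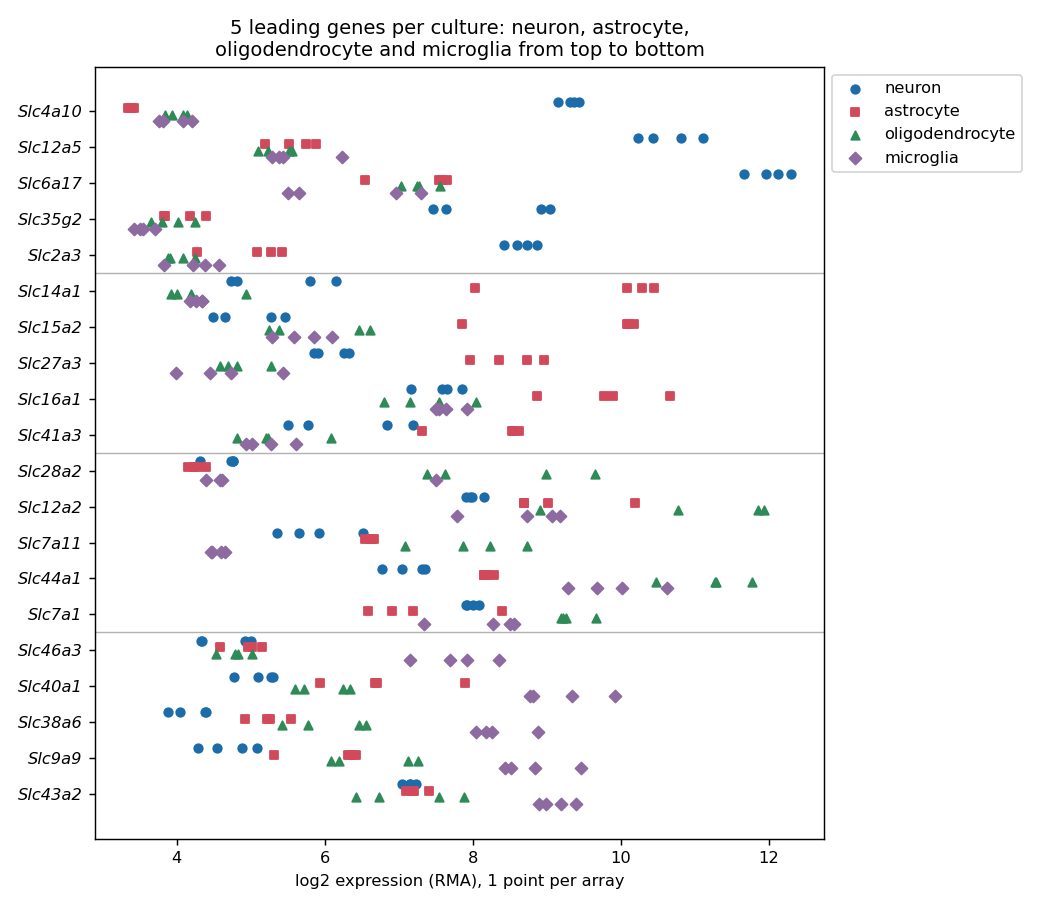
Log2 expression (RMA) on each of the 16 culture arrays for the 5 genes per culture with the largest difference from the next culture, 1 point per array. Neuronal points of Slc4a10 (9.15 to 9.44) and Slc12a5 (10.24 to 11.11) lie far to the right of all others. Oligodendrocyte points overlap those of another culture for Slc12a2, for Slc28a2 (from 7.38, microglia up to 7.50) and for Slc44a1 (from 10.48, microglia up to 10.62). Those of Slc7a1 are close to the other groups without overlap.

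Glucose and monocarboxylate carriers separated neurons from astrocytes. Slc2a1, the glucose transporter GLUT1 of glia and the blood-brain barrier, measured 10.48, 10.33, 10.43 and 9.35 in astrocytes and 6.39, 6.95, 7.15 and 7.04 in neurons. Oligodendrocyte cultures (8.32 to 8.70) and microglia (7.68 to 8.35) lay between. The gene was thus higher in astrocytes than in each other culture (1.64 ± 0.24 above oligodendrocyte cultures, limma adjusted p = 5.68e-05) and lower in neurons than in each (1.23 ± 0.24 below microglia, limma adjusted p = 0.000399). Slc2a3, the neuronal glucose transporter GLUT3, measured 8.60, 8.43, 8.73 and 8.87 in neurons and 3.83 to 5.43 elsewhere (3.64 ± 0.22 above astrocytes, limma adjusted p = 1.81e-09, 12.5-fold). Slc2a13, a proton-coupled myo-inositol transporter, was neuronal too (9.79, 9.69, 9.87 and 9.93, against 4.74 to 7.07; 3.48 ± 0.21, limma adjusted p = 2.85e-09). Slc50a1, a sugar transporter of the SWEET type, was lowest in neurons (5.11, 5.03, 5.63 and 5.30) and measured 7.70 to 8.74 on all glial arrays. Slc37a4, the glucose-6-phosphate carrier of the endoplasmic reticulum, had no called pair and means within 0.37 log2 units of each other.

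Slc16a1, the monocarboxylate transporter MCT1 for lactate and ketone bodies, measured 10.67, 9.77, 9.90 and 8.87 in astrocytes. It lay at 7.17 to 7.86 in neurons, 6.80 to 8.05 in oligodendrocyte cultures and 7.51 to 7.92 in microglia, with no overlap between astrocytes and the rest (2.15 ± 0.32, limma adjusted p = 6.12e-05). Slc16a7, encoding the high-affinity monocarboxylate transporter MCT2, was shared by neurons (7.90, 8.43, 7.33 and 7.38) and microglia (7.74, 8.60, 8.25 and 8.43). It was lowest in oligodendrocyte cultures at 4.07, 4.20, 4.15 and 4.50, below astrocytes (4.84 to 5.81) by 1.26 ± 0.26 (limma adjusted p = 0.00128). This was the only kept gene lower in oligodendrocyte cultures than in each other culture (0.671%, against 0.343% of array genes at that level). Of other glucose and lactate carriers, Slc2a5 reached at most 5.68 and Slc16a3 at most 5.44 in any culture mean, and neither was kept.

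**Figure D3:**
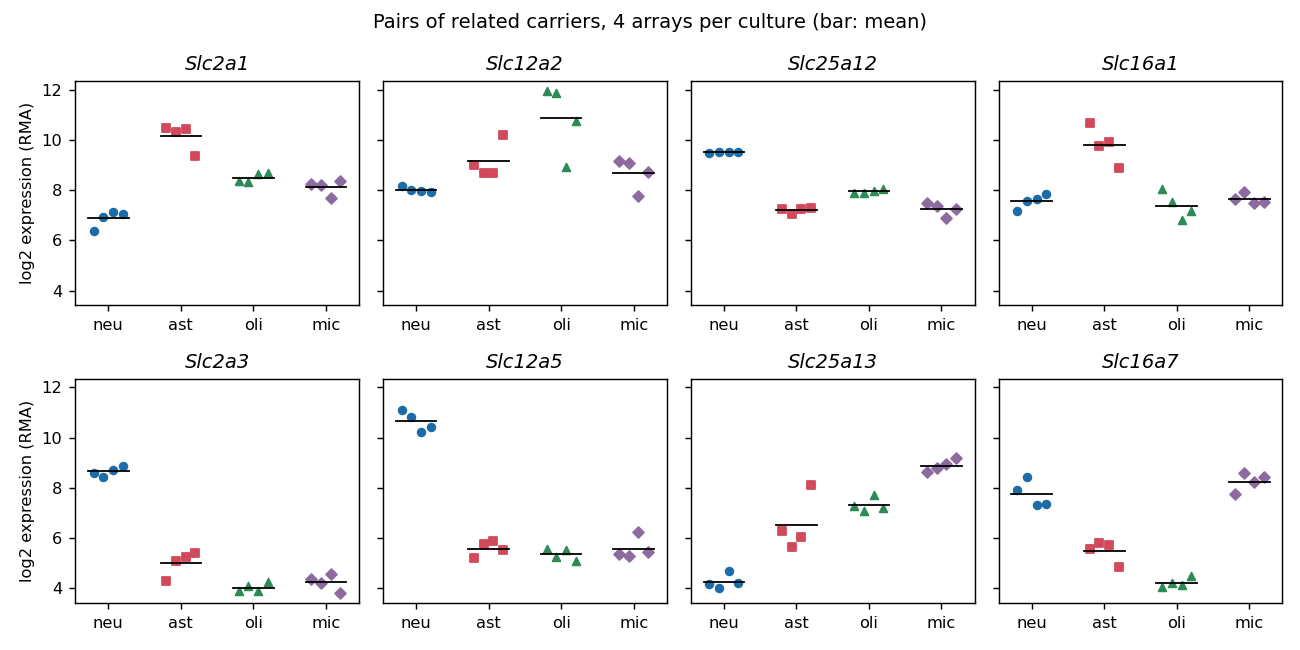
Log2 expression (RMA) of 4 pairs of related carriers on the 4 arrays of each culture (neu, neurons; ast, astrocytes; oli, oligodendrocyte cultures; mic, microglia), with the culture mean as a bar. Within each pair the genes peak in different cultures, for example Slc2a1 in astrocytes and Slc2a3 in neurons; heights are comparable between cultures of a panel and not between panels.

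Microglia led for 6 of 25 kept amino acid and peptide carriers, where 5.24% of array genes at a level of 7 or more were called. Slc38a6, a member of the sodium-coupled neutral amino acid transporter family, measured 8.18, 8.26, 8.05 and 8.88 in microglia and 3.89 to 4.40 in neurons (2.28 ± 0.25 above oligodendrocyte cultures, limma adjusted p = 9.06e-06). Slc43a2, a uniporter of large neutral amino acids, measured 9.19, 8.90, 9.40 and 8.99 in microglia and 6.42 to 7.88 elsewhere (1.89 ± 0.24, limma adjusted p = 1.47e-05). Slc15a3, a lysosomal transporter of histidine and small peptides, measured 9.59, 9.50, 9.47 and 10.39 in microglia and 7.86, 8.62, 8.86 and 8.66 in oligodendrocyte cultures. On the neuronal and astrocytic arrays it lay at 3.80 to 4.71. Slc7a7, the light chain of a cationic and neutral amino acid exchanger, followed the same order with 8.93, 9.26, 9.75 and 9.32 in microglia, 7.59 to 8.45 in oligodendrocyte cultures, 3.97 to 4.34 in neurons and 3.93 to 5.22 in astrocytes. Slc66a1, a lysosomal exporter of cationic amino acids, was 9.31, 9.68, 9.78 and 9.16 in microglia against 7.35 to 8.29 elsewhere. Slc38a10 was the remaining gene of the 6.

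In all, 8 kept genes (5.37%, against 4.29% of array genes at that level) were higher in both oligodendrocyte cultures and microglia than in both neurons and astrocytes. They were Slc15a3, Slc15a4, Slc31a1, Slc31a2, Slc44a1, Slc6a6, Slc7a6 and Slc7a7, and among them are carriers of amino acids and peptides, of copper and of taurine. Microglial markers were raised in the oligodendrocyte cultures (7.63 to 8.69, against 4.51 to 4.66 in neurons), and oligodendrocyte markers in the microglia. Slc15a4, a relative of Slc15a3, was higher in oligodendrocyte cultures (9.64, 9.75, 9.35 and 10.14) than in microglia (8.95, 8.95, 8.80 and 8.83), and the groups did not overlap. Slc7a6 had overlapping values in the oligodendrocyte cultures (9.08 to 9.43) and microglia (9.24 to 9.51).

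Other amino acid carriers were called higher in oligodendrocyte cultures than in each other culture. Slc7a11, the cystine-glutamate exchanger light chain that supplies cystine for glutathione, measured 7.87, 7.09, 8.73 and 8.23 there, 6.54 to 6.67 in astrocytes, 5.36 to 6.52 in neurons and 4.47, 4.48, 4.66 and 4.60 in microglia. It exceeded astrocytes by 1.37 ± 0.28 (limma adjusted p = 0.00109) and was also lower in microglia than in each other culture. Slc7a1, the cationic amino acid transporter CAT1, measured 9.20, 9.67, 9.26 and 9.22 in oligodendrocyte cultures and 8.27, 8.50, 7.34 and 8.56 in microglia (1.17 ± 0.32, limma adjusted p = 0.0137). That call was lost without microglia replicate 3, where the difference was 0.90 (limma adjusted p = 0.0502). Another probe set of Slc7a1 was also highest in oligodendrocyte cultures. Its means there (9.07) and in microglia (8.34) differed by less than the minimum of 1. Slc38a2, the neutral amino acid transporter SNAT2 that responds to amino acid supply, measured 11.03, 11.30, 10.62 and 10.56 in oligodendrocyte cultures and 10.47, 9.59, 9.57 and 9.47 in microglia (1.10 ± 0.21, limma adjusted p = 0.00105). Its difference fell under the minimum of 1 without oligodendrocyte replicate 2 (0.96), and did not exceed that minimum without microglia replicate 4 (1.00).

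The upstream window of Slc7a1 is shown because it was the 1 gene among the 6 genes led by oligodendrocyte cultures that held any of 4 searched motifs. It lies on the plus strand at chr12:11664238-11664487 (GRCr8, RefSeq), with a match to the ATF4-type letters TGATGNAA in capitals.
Slc7a1: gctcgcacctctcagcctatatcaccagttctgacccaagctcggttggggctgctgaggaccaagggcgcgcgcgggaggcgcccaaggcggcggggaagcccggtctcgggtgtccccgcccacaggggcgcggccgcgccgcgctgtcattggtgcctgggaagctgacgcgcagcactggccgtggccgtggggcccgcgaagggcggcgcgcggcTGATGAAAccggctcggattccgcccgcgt
On either strand, TGATGNAA was found in 6 of 125 kept windows (4.80%), against 1.71% of 7080 windows of array genes at the same level and 3.27% of all 27457 windows. A PU.1-type motif, GAGGAAGT, was found in 1.60% of kept windows (2.26% and 2.04% in those sets), a CLEAR-type motif, TCACGTGA, in 0.80% (1.67% and 0.743%) and the left part of RE1, TTCAGCACC, in 0 (0.41% and 0.317%). No motif contains another. A match describes the letters and not a binding site, and among the genes led by other cultures 1 of 11 microglial windows (9.09%) held the ATF4-type letters, while 0 of 19 neuronal and 0 of 10 astrocytic windows held any of the 4 motifs.

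Slc38a1 and Slc6a15 were lowest in microglia. Slc38a1, the neutral amino acid transporter SNAT1 that can supply glutamine to neurons, measured 9.60, 9.42, 10.06 and 10.03 in neurons and 6.98, 7.20, 6.34 and 5.59 in microglia. Oligodendrocyte cultures (8.22 to 8.47) exceeded microglia by 1.85 ± 0.42 (limma adjusted p = 0.00396). Astrocyte replicates 1 to 3 (9.90, 9.75 and 9.63) reached the neuronal range, and astrocyte replicate 4 gave 7.71. Slc6a15, a sodium-coupled transporter of branched-chain amino acids and proline, measured 9.91, 9.93, 9.97 and 10.10 in neurons and 10.29, 9.63, 9.51 and 7.45 in astrocytes, against 5.00, 5.18, 4.23 and 3.84 in microglia. Its difference between oligodendrocyte cultures and microglia (1.84 ± 0.51, limma adjusted p = 0.015) was not called without microglia replicate 4 (1.59, limma adjusted p = 0.0521). In all 5 kept genes were lower in microglia than in each other culture by the probe sets used (3.36%, against 2.92%). The others were Slc7a11, Slc25a23 and Slc25a33, and another probe set of Slc25a23 did not show this.

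In neurons, Slc6a17, a vesicular transporter of neutral amino acids, stood out at 11.97, 11.66, 12.12 and 12.30, with 5.51 to 7.65 elsewhere (4.68 ± 0.36, limma adjusted p = 2.74e-08, 25.7-fold). Slc3a1, the heavy chain of a cystine and dibasic amino acid exchanger, measured 9.58, 11, 10.61 and 9.90 in neurons and 8.19, 8.01, 7.90 and 5.65 in astrocytes (2.83 ± 0.48, limma adjusted p = 0.000151). Without astrocyte replicate 4 its difference was 2.24. Slc15a2, the peptide transporter PEPT2 that takes up di- and tripeptides, was astrocytic at 10.08, 10.11, 10.18 and 7.86 (3.63 ± 0.47 above oligodendrocyte cultures, limma adjusted p = 1.89e-05). Even the lowest astrocytic value of Slc15a2 lay above the highest value in any other culture (6.61). Slc7a5, the large neutral amino acid exchanger LAT1, had no called pair, and Slc3a2, the heavy chain that partners it, was 11.21 to 11.52 in astrocytes and 0.80 ± 0.17 above the next culture, under the minimum of 1.

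Among carriers of transmitters and osmolytes, Slc14a1, the urea transporter UT-B, was astrocytic at 10.45, 10.08, 10.29 and 8.03 (4.33 ± 0.45 above neurons, limma adjusted p = 9.8e-07, 20.1-fold). Its neuronal values were 4.82, 4.74, 6.15 and 5.80, higher in replicates 3 and 4, which also had the higher astrocyte marker means. Slc41a3, a magnesium transporter, shared this neuronal split (5.78, 5.51, 6.84 and 7.19) below its astrocytic values of 8.53, 8.62, 8.54 and 7.31. Slc24a2 and Slc35g2, with astrocytic means of 6.08 and 4.07, were also higher in neuron replicates 3 and 4. The split was thus not limited to genes high in astrocytes, and its source was not tested. Slc6a6, the taurine transporter, measured 10.73, 10.66, 10.75 and 10.69 in microglia, 9.92 to 10.82 in oligodendrocyte cultures and 8.14 to 8.88 in neurons. In astrocytes it measured 6.03, 6.81 and 7.07 in replicates 1 to 3 and 10.59 in replicate 4, just below the microglial arrays. The microglial excess over astrocytes was 3.09 log2 units with all arrays and 4.07 without astrocyte replicate 4. Slc17a5, the lysosomal sialic acid exporter sialin, was tight and microglial, at 9.72, 9.54, 9.77 and 9.55 against 7.17 to 8.33 elsewhere (1.86 ± 0.15, limma adjusted p = 7.83e-07). Slc6a8, the creatine transporter, and Slc6a9, the glycine transporter GLYT1, had no culture higher or lower than each other one. Slc6a11 was listed at a highest mean of 3.62 and was not kept, while Slc11a1 and Slc17a8 were not analysed here.

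Among carriers of iron and copper, Slc40a1, the iron exporter ferroportin, measured 9.34, 8.82, 9.92 and 8.77 in microglia and 4.78 to 5.30 in neurons. Its astrocytic values were 5.94, 6.71, 6.68 and, in replicate 4, 7.90 (2.40 ± 0.35 below microglia, limma adjusted p = 4.87e-05). Slc11a2, the ferrous iron importer DMT1, ranged only from 7.89 to 9.73 over all cultures, with no culture higher or lower than each other one. Slc31a2, a low-affinity copper transporter, measured 8.87, 8.95, 8.93 and 9.74 in microglia, 7.39 to 8.33 in oligodendrocyte cultures, 6.58 to 7.01 in astrocytes and 4.10 to 4.42 in neurons, a graded order in which no neighbouring groups overlapped. The copper importer Slc31a1 was higher in oligodendrocyte cultures (9.46 to 9.98) and microglia (10.31 to 10.46) than in neurons (8.26 to 8.89) and astrocytes (8.55 to 8.85).

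Among zinc carriers, Slc30a3, the zinc transporter ZnT3 that loads synaptic vesicles, was neuronal with 9.35, 9.33, 7.91 and 8.19 (1.67 ± 0.31, limma adjusted p = 0.000348), and here replicates 1 and 2 were the higher. Slc39a3, a zinc importer, was neuronal as well by the probe set used, at 8.58, 8.46, 8.09 and 8.24 against 6.22 to 6.75 elsewhere. Another probe set of Slc39a3 did not show this. Its means were 6.74 in neurons, 6.73 in astrocytes, 6.42 in oligodendrocyte cultures and 6.47 in microglia. The importer Slc39a6 was astrocytic at 9.07, 9.06, 9.03 and 9.22 (1.55 ± 0.14, limma adjusted p = 4.35e-07), and Slc39a13 was astrocytic at 8.94, 9.05, 8.98 and 9.89. Slc30a5, which carries zinc into the secretory pathway, had the smallest range of means in the family (0.10) and lay between 7.71 and 8.32 on all 16 arrays. Slc39a14 had no called pair.

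Carriers of nucleosides, vitamins, choline and lipids supplied single strong patterns. Slc28a2, the concentrative nucleoside transporter CNT2, measured 7.62, 7.38, 9.65 and 8.99 in oligodendrocyte cultures and 4.15 to 4.76 in neurons and astrocytes. In microglia it gave 4.61, 4.59, 4.40 and, in replicate 4, 7.50. Its excess over microglia was 3.14 ± 0.59 (limma adjusted p = 0.00107, 8.79-fold), and 3.88 without microglia replicate 4. Slc29a3, an equilibrative nucleoside transporter of lysosomes, was highest in microglia (8.89, 8.92, 9.16 and 8.25) and lowest in neurons (5.34 to 6.11). Slc44a1, a choline transporter, measured 11.29, 11.78, 10.48 and 11.28 in oligodendrocyte cultures, 9.29 to 10.62 in microglia, 8.15 to 8.29 in astrocytes and 6.77 to 7.35 in neurons. Its relative Slc44a2 was astrocytic at 11.20, 10.67, 10.66 and 10.91, with 7.99 to 9.60 elsewhere. Slc46a3, a lysosomal transporter, was microglial at 7.16, 7.69, 8.35 and 7.92 against 4.33 to 5.16 (2.84 ± 0.23, limma adjusted p = 1.14e-07). Slc27a3 of the fatty acid transport protein family was astrocytic at 8.74, 7.97, 8.36 and 8.96 (2.42 ± 0.27, limma adjusted p = 2.26e-06). Slc27a1 of the same family was high in astrocytes (10.08, 9.66, 9.58 and 8.71) and in microglia (8.76 to 9.18), which overlapped. Slc35g2, whose neuronal values were 7.64, 7.47, 8.92 and 9.05, measured 3.43 to 4.40 elsewhere. Slc33a1, the acetyl-CoA transporter of the endoplasmic reticulum, and Slc35e1 were nearly level, with ranges of means of 0.16 and 0.35.

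The mitochondrial carriers called higher in neurons than in each other culture were Slc25a12, Slc25a14, Slc25a22, Slc25a25 and Slc25a27. Slc25a22, a mitochondrial glutamate carrier, measured 10.07, 9.90, 9.90 and 9.95 in neurons and 7.48 to 8.12 elsewhere (2.04 ± 0.13, limma adjusted p = 5.27e-09). The uncoupling protein relatives Slc25a27 (6.93 to 7.31 in neurons, 4.34 to 5.69 elsewhere) and Slc25a14 (8.20 to 8.73, against 5.66 to 7.23) also showed no overlap. Slc25a23, a calcium-regulated carrier of ATP-magnesium and phosphate, was lowest in microglia by the probe set used (6.65, 6.47, 5.53 and 5.41). Astrocyte replicate 4 (5.87) fell within that range while the other astrocyte arrays gave 8.11 to 8.34. Its difference between astrocytes and microglia was 1.63 ± 0.44 with all arrays and 2.22 without astrocyte replicate 4. Another probe set of Slc25a23 did not show microglia as lowest. Its means were 6.17 in neurons, 6.17 in astrocytes, 6.66 in oligodendrocyte cultures and 6.34 in microglia. The adenine nucleotide translocases were high throughout: Slc25a4 lay between 10.85 and 12.51 and Slc25a5 between 10.80 and 12.37, and neither had a culture higher than each other one. Slc25a11, the oxoglutarate-malate carrier of the same shuttle as Slc25a12, had means within 0.26 of each other.

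In neurons, 16 kept genes (10.7%) were lower than in each other culture, a share near the 10.6% of array genes at that level. They included Slc66a3 (4.96 to 5.65 in neurons, 7.63 to 9.60 elsewhere), Slc31a2 and Slc50a1. Only 2 (1.34%, against 2.45%) were lower in astrocytes than in each other culture. They were Slc66a2 (5.63 to 5.95 in astrocytes, 1.03 ± 0.18 below oligodendrocyte cultures) and Slc25a44 (6.48 to 6.83, 1.01 ± 0.19 below), and both differences are just above the minimum. The Slc66a2 difference fell to 0.93 without oligodendrocyte replicate 1, 0.94 without oligodendrocyte replicate 2 and 0.96 without astrocyte replicate 4, and that of Slc25a44 to 0.89 without oligodendrocyte replicate 2, 0.94 without astrocyte replicate 2 and 0.99 without astrocyte replicate 3.

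In single pairs of cultures, neurons exceeded astrocytes for 30 kept genes (20.1%, against 17.8% of array genes at that level) and astrocytes exceeded neurons for 36 (24.2%, against 23.4%). Neurons exceeded microglia for 43 (28.9%, against 22.4%) and microglia exceeded neurons for 39 (26.2%, against 23.1%). For neurons and oligodendrocyte cultures the counts were 33 (22.1%, against 17.1%) and 37 (24.8%, against 21.7%). Oligodendrocyte cultures and microglia gave the fewest, 24 higher in the former (16.1%, against 10.8%) and 19 in the latter (12.8%, against 8.47%). Astrocytes exceeded oligodendrocyte cultures for 25 (16.8%, against 15%) and the reverse held for 21 (14.1%, against 13.8%). Between astrocytes and microglia 30 were higher in astrocytes (20.1%, against 16.8%) and 28 in microglia (18.8%, against 13%). The level that chose the genes was measured on the same arrays, and these shares carry no test. Over all 288 measured genes the median difference of each pair lay between -0.15 and 0.02 log2 units, and over all 14217 genes between -0.12 and 0.02.

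The mixtures show how the carriers' signals follow the neuronal RNA fraction. They are further hybridisations of culture RNA, so that they repeat the measurement and not the culture. For Slc12a5 the 2 arrays of NA1, NA2 and NA3 gave 9.42 and 9.31, 10.21 and 10.20, and 10.64 and 10.61, almost the same for both sets of parents. Its slope per unit of neuronal fraction was 2.52 ± 0.27 log2 units (SE, limma adjusted p = 0.00411). Slc4a10 (2.61 ± 0.23, limma adjusted p = 0.00404) and Slc2a3 (2.84 ± 0.29, limma adjusted p = 0.00409) had similar slopes. Because the mixtures dilute RNA of cultures that already differed, the direction of such slopes was set in advance. The slopes are not separate support for the culture differences. All 30 kept genes called higher in neurons than in astrocytes had a slope above 0. Among kept genes 23 had a called slope above 0 (15.4%, against 15.8% of array genes at that level) and 17 below 0 (11.4%, against 11.5%). Fitted with the replicate number as a block, which takes out the difference between the sets of parents, the counts were 30 (20.1%, against 20.4%) and 40 (26.8%, against 24.6%).

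The genes called below 0 only with the block include several whose astrocyte parents differed. Slc15a2 read 9.91, 9.07 and 7.87 in NA1, NA2 and NA3 of replicate 1, and 7.28, 6.74 and 6.07 in replicate 2. Its parents, astrocyte replicates 1 and 4, had read 10.08 and 7.86. The slope of -3.24 had a limma adjusted p = 0.436 without the block and a limma adjusted p = 0.00172 with it. Slc14a1 gave the same pattern (slope -3.15, limma adjusted p = 0.522 without and 0.00152 with the block), as did Slc2a1 (-2.71, 0.219 and 0.00114) and Slc25a13 (-3.19, 0.353 and 0.00128). For Slc6a6 the replicates ran in opposite directions: 7.62, 8.27 and 8.62 in replicate 1, with an astrocyte parent at 6.03, and 9.97, 9.81 and 9.46 in replicate 2, with an astrocyte parent at 10.59. In NAO, Slc28a2 read 5.12 in replicate 1 and 7.07 in replicate 2, and the oligodendrocyte parents had read 7.38 and 8.99. Values that set astrocyte replicate 4 apart on its culture array were thus read again on arrays of mixtures that hold its RNA.

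**Figure D4:**
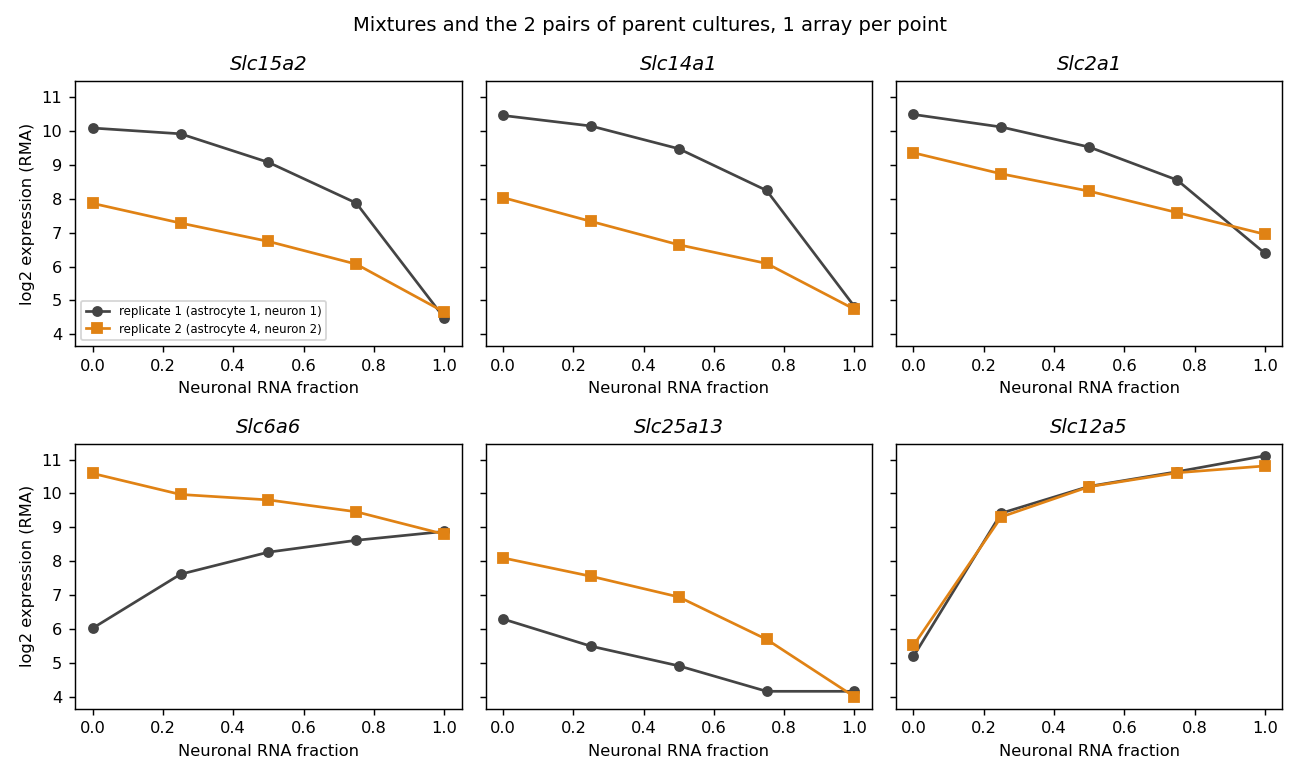
Log2 expression (RMA) of 6 carriers against the neuronal RNA fraction, from the astrocyte parent (0) over NA1, NA2 and NA3 to the neuron parent (1), 1 array per point, for mixture replicate 1 (circles) and replicate 2 (squares). The lines coincide for Slc12a5, start apart for Slc15a2, Slc14a1, Slc2a1 and Slc25a13, and run in opposite directions for Slc6a6.

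Of the genes on the arrays, those most like Slc4a10 over the 16 culture arrays were Kcnip4 (Pearson r = 0.997), Nsf (0.997) and Myo5b (0.996). For Slc12a5 they were Cck (0.995), Cntnap2 (0.994) and Hspa12a (0.994), and for Slc6a17 they were Ndrg3 (0.990), Tcf25 (0.988) and Epb41l3 (0.986). The arrays fall into 4 cultures, which sets much of such a correlation, and the values are descriptive.

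Partners of the carriers were read from a list of 27 genes for ion pumps, accessory chains, regulating kinases and iron handling, of which 21 were measured. Of these 2 were higher in neurons than in each other culture, 2 in astrocytes, 3 in microglia and 0 in oligodendrocyte cultures, where the shares of array genes at a level of 7 or more were 11.2%, 7.68%, 5.24% and 2.47%. In neurons 5 were lower than in each other culture (10.6% of those array genes). Wnk2, a kinase of the family that regulates chloride cotransporters, averaged 8.45 in neurons and 4.63 to 6.09 in the other cultures, while Wnk1 averaged 8.04 in neurons and 10.06 to 10.13 in the others. Fxyd7, a neuronal regulator of the sodium pump, averaged 8.23 in neurons (4.66 to 5.51 elsewhere), and Fxyd1 averaged 10.14 in astrocytes (5.32 to 6.53 elsewhere). Among iron genes, ceruloplasmin (Cp), the ferroxidase that works with ferroportin, averaged 11.66 in astrocytes and 5.86 in neurons, and Hmox1, which releases iron from haem, averaged 11.54 in microglia. Emb, an accessory chain of monocarboxylate transporters, averaged 10.88 in microglia and 6.65 in neurons, and Bsg, the partner of MCT1, averaged between 10.36 and 11.42 in every culture.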

How the data were processed

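RNA from 16 culture arrays and 10 mixture arrays was measured. The deposited values are log2 expression made by the authors with RMA in affy, per the submitters' processing notes, whose versions are not given. RMA includes quantile normalization, which assumes like overall distributions, and its background compresses differences at low signal. The table held 31099 probe sets; 57 controls were left out and 31042 tested with no filter on low values. Intensities and chip quality were not analysed here; the number of arrays limits precision.

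Gene names came from the platform annotation, 1 probe set per gene (highest mean over 26 arrays). Left out were 2 solute carrier probe sets whose annotation listed several symbols. Among genes called higher in 1 culture than in each other culture, 21 had other probe sets, 30 in all. Of these probe sets 28 had the same highest culture, counted by any margin. Genes called lower, or shared by cultures, were not counted in this way. The margin could be very small, as for Slc39a3 (6.74 in neurons, 6.73 in astrocytes). The other 2 lay below 7 in every culture, as did some of the 28. All 149 kept genes matched GRCr8 identifiers. Substrate classes were written by hand from textbook substrates; the classes of a few unusual symbols were set after the symbols were seen, and 2 kept genes (Slc4a1ap, Slc7a6os) bear a carrier symbol without being carriers.

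limma 3.58.1 (R 4.3.3) fitted 4 culture means with 6 pairwise contrasts, and for NA1 to NA3 a slope on the neuronal fraction over 6 arrays. Calls needed a Benjamini-Hochberg adjusted p under 0.05 over all probe sets tested and, between cultures, a difference of at least 1. Slopes had no minimum. Folds are 2 to the power of the difference. Mixture replicates share stated parents and their residuals correlated (r 0.484 to 0.873 in 6 of 6 pairs). Blocked counts, and blocked adjusted p for some genes, are therefore printed beside those without the block. The slopes of Slc12a5, Slc4a10 and Slc2a3, with their SE and adjusted p, are from the fit without the block. So are the slopes and counts with single mixture arrays left out. For cultures r was -0.107 to 0.178 over 24 pairs. The fits were tested on simulated data.

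Members, classes, lists, tests and alternatives were chosen with earlier results of these data known. Genes were named by a rule: per culture, up to 8 called higher and 3 called lower by largest smallest difference, the 5 most level, the 2 on each side of the level of 7, and a list of well-known carriers; and, for the 3 largest differences, the 3 most correlated genes. Others were named after their values were seen, to complete small groups. Alternatives covered the block, centring, quantile normalization, dim probe sets, the variance model, array weights, the minimum difference, the probe set, the level and each array left out.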

Additional observations from a re-analysis of the deposited data

Results flagged for a closer look

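For the 62 named genes, 248 groups of 4 arrays were searched for 1 array far from the others (Dixon's ratio above its critical value for 4 values), and 25 were found; chance alone marks about 1 in 20 groups. No explanation was tested.

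Astrocyte replicate 4 gave 11 of them. It was low for Slc14a1 (8.03, others 10.08 to 10.45), Slc15a2 (7.86, others 10.08 to 10.18), Slc38a1 (7.71, others 9.63 to 9.90), Slc3a1 (5.65, others 7.90 to 8.19), Slc25a23 (5.87, others 8.11 to 8.34), Slc41a3 (7.31, others 8.53 to 8.62), Slc9a9 (5.31, others 6.32 to 6.43), Slc6a17 (6.55, others 7.54 to 7.65), Slc2a1 (9.35, others 10.33 to 10.48) and Slc25a4 (11.66, others 11.78 to 11.80). It was high for Slc33a1 (8.92, others 8.49 to 8.53). Its fibroblast and meningeal marker mean was 9.23, against 6.57 to 6.66 in the other astrocyte arrays, set by Col1a1, Col1a2 and Col3a1; Dcn and Lum were low and Ogn was alike on all 4 astrocyte arrays. Astrocyte replicate 1 was low for Slc66a3 (8.65, others 9.48 to 9.60) and high for Slc8a1 (9.60, others 9.23 to 9.26).

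Microglia replicate 4, the array whose description reads as a mixture, was high for Slc28a2 (7.50, others 4.40 to 4.61), Slc31a2 (9.74, others 8.87 to 8.95) and Slc15a3 (10.39, others 9.47 to 9.59). Microglia replicate 3 was high for Slc12a5 (6.23, others 5.29 to 5.44) and low for Slc39a6 (7.10, others 7.62 to 7.64) and Slc1a4 (6.11, others 6.89 to 6.97). Microglia replicate 1 was high for Slc38a2 (10.47, others 9.47 to 9.59).

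Oligodendrocyte replicate 2 was high for Slc7a1 (9.67, others 9.20 to 9.26) and low for Slc3a2 (10.24, others 10.33 to 10.34), and oligodendrocyte replicate 1 was low for Slc1a4 (7.35, others 7.81 to 7.84). Neuron replicate 3 was low for Slc28a2 (4.31, others 4.74 to 4.76) and neuron replicate 2 for Slc33a1 (8.49, others 8.53 to 8.54), both by less than 1 log2 unit.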

How the results depend on the processing

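Of 64 differences between cultures for named genes, 56 kept their sign and their side of the threshold under every alternative other than the minimum difference. Those that did not included Slc12a2, Slc38a2, Slc7a1, Slc66a2, Slc25a44 and Slc6a15, with values in the report; Slc66a2 was also not called with array weights (0.96), nor Slc25a44 with arrays centred on their medians (1.00). The difference of Slc6a8 between oligodendrocyte cultures and microglia (1.20) was 0.99 without microglia replicate 4. That of Slc30a5 between astrocytes and oligodendrocyte cultures (0.10, not called) reversed to -0.02 without astrocyte replicate 4 and ranged up to 0.18 over the arrays left out.

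The minimum difference moved most counts. With no minimum, 31 genes were higher in neurons, 21 in astrocytes and 14 in oligodendrocyte cultures than in each other culture; with a minimum of 2 the counts were 13 for neurons, 4 for astrocytes, 1 for oligodendrocyte cultures and 4 for microglia. In pairs with no minimum, neurons exceeded astrocytes for 53 and oligodendrocyte cultures for 50, astrocytes exceeded neurons for 57, oligodendrocyte cultures for 42 and microglia for 49, oligodendrocyte cultures exceeded neurons for 60, astrocytes for 45 and microglia for 43, and microglia exceeded astrocytes for 46 and oligodendrocyte cultures for 32. With a minimum of 2, neurons exceeded astrocytes for 17, oligodendrocyte cultures for 19 and microglia for 24; astrocytes exceeded neurons for 16, oligodendrocyte cultures for 9 and microglia for 16. Oligodendrocyte cultures then exceeded neurons for 15, astrocytes for 9 and microglia for 6, and microglia exceeded neurons for 20, astrocytes for 13 and oligodendrocyte cultures for 6. For the 21 measured genes of the partner list with no minimum, 6 were higher in astrocytes than in oligodendrocyte cultures and 9 the reverse. At the minimum of 1 these counts were 3 and 5, beside 15.0% and 13.8% of array genes at a level of 7 or more. With a minimum of 2, 4 were higher in neurons than in astrocytes, 3 in neurons than in oligodendrocyte cultures, 1 in oligodendrocyte cultures than in astrocytes, 3 in astrocytes than in microglia, 4 in microglia than in astrocytes and 3 in microglia than in oligodendrocyte cultures. Fewer genes can pass a larger minimum by construction.

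With the replicate block, slopes below 0 rose from 17 to 40. When single mixture arrays were left out, slopes above 0 numbered 13 to 19 and slopes below 0 numbered 11 to 16, the lowest counts without NA3 replicate 2 (13) and NA3 replicate 1 (11), and 15 above 0 without NA3 replicate 1; fewer arrays were fitted there. Slope calls of Slc44a2, Slc16a7, Slc35f4, Slc30a3, Slc24a2 and Slc6a17 were each lost without some single mixture array. The block on the culture replicates moved no count by over 1.5 times. Levels below the array medians limit how far a difference can be read.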
